A study of Mus musculus with 20 samples.

Results

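The comparison set liver expression in mutant mice given coenzyme Q10 (CoQ10) against untreated mutants, 5 livers in each group and 10 of the 20 livers profiled in all. Members were chosen by the treatment and source fields of the sample labels. All 20 mice were female and each liver was hybridised to its own Illumina Mouse WG-6 v2.0 array. The mutants of the comparison, B6.Pdss2(kd/kd), carried the recessive kd missense allele on both copies of Pdss2, on a B6 background in backcross generation 13. The untreated mutants ate standard chow and were 129 to 143 days old. The CoQ10 mutants received CoQ10 at 1 mg/ml, estimated by the submitters at about 400 mg per kg of body weight per day over their lifetime, and were 153 to 156 days old. The other 10 livers came from untreated B6 wild type, 215 to 217 days old, and from kd/kd mutants labelled probucol (1% of the diet, about 95 mg per kg per day), 140 to 145 days old.

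The labels limit the comparison in 3 ways. Every CoQ10 mouse was older than every untreated mutant, so treatment and age cannot be told apart. The untreated livers carry the prefix Prob in their array names, and the livers whose treatment field says probucol carry the prefix Untr. The treatment field was used throughout, and values for the other reading of the labels are given where it ends a call. In the labels, urine albumin was 0.84 to 1.86 mg per 24 h in the mice whose treatment field says probucol and 13.52 to 57.34 in those it calls untreated, and their nephritis scores were 3, 0, 0, 1 and 0 against 3, 4, 3, 2 and 2. These measures stand in the same sample records as the treatment field, and which array holds which RNA was not tested. The kd missense allele is present throughout the body in these mice, and the groups compared also differed in kidney disease. By treatment field the nephritis score was 0 in 3 CoQ10 mice and in 0 untreated mutants. The part of kidney disease in the liver values was not tested. No probe of the array was named Pdss2, so the mutated gene was not analysed here.

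Coenzyme Q is the lipid that carries electrons in the inner mitochondrial membrane from complexes I and II, and from several other dehydrogenases, to complex III. Pdss2 encodes a subunit of the enzyme that builds its polyprenyl tail, and kd/kd mice are known for a kidney disease with albumin in the urine. Several gene groups described here follow the liver's daily rhythm. In the circadian clock, BMAL1 (encoded by Arntl) and CLOCK activate genes through E-box elements, their target REV-ERB alpha (Nr1d1) represses Arntl through ROR elements, and Dbp, Tef and Hlf pass the rhythm on to metabolic genes. The labels do not state the time of day of tissue collection.

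The glomerular nephritis scores in the labels were 3, 4, 3, 2 and 2 in the untreated mutants and 2, 0, 0, 0 and 2 in the CoQ10 mutants. The score was therefore 0 in 3 CoQ10 mice and in 0 untreated mutants, and the groups met at 2. Means were 2.8 ± 0.84 without treatment and 0.8 ± 1.1 with CoQ10 (SD, n = 5 each), a difference of -2 (exact two-sided permutation test, p = 0.0476). With any of 6 mice left out, namely CoQ10 replicate 2, 3 or 4 or untreated replicate 1, 2 or 3, the exact p was 0.0952. By array name prefix the CoQ10 mice are set against those labelled probucol, whose mean score was also 0.8, and the difference was 0. Whether the scores, which stand with the treatment field, follow the array names was not tested. Urine albumin was given for 0 CoQ10 mice.

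The 10 arrays detected 12386 to 15003 probes (detection p under 0.05), and detection differed with the number from 1 to 4 in the array name, with medians of 12863, 12587, 14708.5 and 13967 probes for numbers 1 to 4. What this number marks is unstated in the labels (a slide is possible), and both groups span all 4 numbers. The leading component of the 10 arrays (31.2% of the variance) ran from -35.83 to 5.275 for numbers 1 and 2 and from -1.131 to 32.67 for numbers 3 and 4. The next component (17.4%) separated the groups, at 2.301 to 19.94 in untreated and -33.73 to -1.746 in CoQ10 livers. Each array had a median correlation of 0.973 to 0.981 with the other 9. Hepatocyte markers matched the labelled tissue, with 10 of 12 measured and a summed intensity of 382896 to 418535 in untreated and 371678 to 408978 in CoQ10 livers.

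CoQ10-treated and untreated mutant livers differed in few genes. Transcripts that fell with CoQ10 included the male-type P450 Cyp4a12a, the clock repressor Nr1d1, the choline-lipid enzyme Enpp6, the early-response gene Csrnp1 and the metabolic coactivator Ppargc1a, by at least 2.53-fold for Cyp4a12a and by 2.14-fold to 3.52-fold for the others (Nr1d1 and Enpp6 were above background in 1 of 5 CoQ10 livers, so their folds are approximate). Transcripts that rose included Plekhb1, 2.48-fold, and Cmpk2, 2.00-fold. Of 15096 probes tested, 18 passed an adjusted p under 0.05 (0.119%), 7 of them higher (0.0464%) and 11 lower (0.0729%) in CoQ10 livers, by limma's moderated test on 4 group means with Benjamini-Hochberg adjustment. They comprise 12 named genes, 4 higher and 8 lower, and 6 probes with no gene symbol in the platform annotation. Without adjustment 1415 probes had p under 0.05 (9.37%), and the groups did not overlap in 254 probes (1.68%), 146 with CoQ10 lower (0.967%) and 108 with CoQ10 higher (0.715%). The median log2 difference over all probes was 0.0040.

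The call count changed with the reading of the labels and with the fit. Taking the untreated livers by array name prefix gave 7 calls (0.0464%), and 1 call, Cyp4a12a, was left with age as a covariate (0.00662%). Without the 2 youngest untreated mutants 12 probes were called (0.0795%). In both of these fits the ages of the groups compared did not overlap, so neither can separate age from treatment. Without untreated replicate 2 there were 37 calls (0.245%), without untreated replicate 1, 4 or 5 there were 11 (0.0729%) and without untreated replicate 3 there were 13 (0.0861%). Leaving out CoQ10 replicate 1, 2 or 3 gave 12 (0.0795%) and CoQ10 replicate 4 or 5 gave 14 (0.0927%). The choice of probes and samples in the fit also mattered, with 11 calls without a detection filter (0.0243%), 9 among probes detected in all 20 arrays (0.0884%) and 10 with only the 2 groups fitted (0.0662%). All 18 called probes had the same sign within each of the 4 array numbers. For the 15 whose groups did not overlap this was fixed in advance, so it adds no evidence.

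Cyp4a12a (probe ILMN_1254109, chromosome 4) encodes a fatty acid omega-hydroxylase typical of male mouse liver. Its normalised log2 intensity was 8.54, 7.91, 7.37, 7.25 and 6.51 in the untreated livers and 5.23, 5.65, 5.52, 5.30 and 5.30 in the CoQ10 livers. It was above background in 5 of 5 untreated and 0 of 5 CoQ10 livers, and likewise in 0 of 5 wild-type and 0 of 5 probucol livers. The level in untreated livers was therefore at least 2.53-fold higher, a bound against the lowest detected signal of each CoQ10 array (log2 -2.12 ± 0.24, SE of the fit, limma adjusted p = 0.000309). The probe passed the detection filter (at least 5 of 20 arrays) through the untreated group alone, where it was high, so its p-values carry that selection. This gene is the one most exposed to the label conflict, since the livers with the prefix Untr were at background like the CoQ10 livers and the call was lost (limma adjusted p = 0.918). Cyp4a12b, a close paralogue whose signal the array may not separate, gave -0.81 ± 0.19 (limma adjusted p = 0.0903) and was also above background in 5 of 5 untreated and 0 of 5 CoQ10 livers.

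Enpp6 (probe ILMN_2766894, chromosome 8), a phosphodiesterase that acts on choline-containing lysolipids, had log2 levels of 7.40, 7.57, 7.72, 6.98 and 7.56 untreated and 6.45, 5.64, 5.32, 5.75 and 5.63 with CoQ10. The groups did not overlap, and the gene was above background in 1 of 5 CoQ10 livers. It fell about 3.22-fold, with 4 CoQ10 livers not well above background (log2 -1.68 ± 0.22, limma adjusted p = 0.000801) and was also called when the untreated livers were taken by prefix (-1.31, limma adjusted p = 0.0200).

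Csrnp1 (probe ILMN_2636403, chromosome 9), a nuclear protein induced early after growth and stress signals, had levels of 8.46, 8.96, 9.07, 8.72 and 9.66 untreated against 7.83, 7.86, 7.72, 7.54 and 7.47 with CoQ10. The CoQ10 livers were tight and lay below all untreated livers. It fell 2.45-fold (log2 -1.29 ± 0.17, limma adjusted p = 0.00096). By prefix the difference was -0.70 (limma adjusted p = 0.152).

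Ppargc1a (probe ILMN_2710139, chromosome 5) encodes PGC-1 alpha, a coactivator of mitochondrial and gluconeogenic genes. Its levels were 9.01, 8.39, 8.63, 9.03 and 9.16 untreated and 7.82, 7.88, 7.89, 7.97 and 7.17 with CoQ10, with no overlap. It fell 2.14-fold (log2 -1.10 ± 0.21, limma adjusted p = 0.0418), and by prefix the difference was -0.65 (limma adjusted p = 0.286). Its relative Ppargc1b (PGC-1 beta) missed the threshold, at 8.62, 8.14, 8.88, 8.27 and 9.57 against 7.54, 7.47, 7.17, 7.72 and 7.86 (log2 -1.15 ± 0.24, limma adjusted p = 0.0591). The groups did not overlap for Ppargc1b either.

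The remaining called genes that fell were Spata2l, Mast3 and Arrdc2. Spata2l (probe ILMN_1229246, chromosome 8) stood at 9.47 to 10.86 untreated and 9.0 to 9.38 with CoQ10 (log2 -1.23 ± 0.21, limma adjusted p = 0.0123). Mast3 (probe ILMN_2695539, chromosome 8), a serine/threonine kinase of the microtubule-associated family, stood at 9.52 to 10.64 and 8.78 to 9.25 (-1.08 ± 0.21, limma adjusted p = 0.0362). By prefix the differences were -0.64 for Spata2l (limma adjusted p = 0.277) and -0.70 for Mast3 (limma adjusted p = 0.236). In all 3 genes the untreated liver nearest to the CoQ10 livers was replicate 2. Arrdc2 (probe ILMN_2693835, chromosome 8), of the arrestin-domain family, was above background in 4 of 5 untreated and 0 of 5 CoQ10 livers and was at least 1.92-fold higher untreated (log2 -1.69 ± 0.33, limma adjusted p = 0.0437).

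Plekhb1 (probe ILMN_2933022, chromosome 7), a pleckstrin-homology-domain membrane protein, was the called gene that rose most. Its levels were 8.90, 8.71, 8.52, 8.77 and 8.83 untreated and 10.58, 10.18, 9.48, 9.68 and 10.38 with CoQ10. Every CoQ10 liver lay above every untreated liver, and the rise was 2.48-fold (log2 1.31 ± 0.20, limma adjusted p = 0.00311). It was also called by prefix (1.17, limma adjusted p = 0.0200). Wild-type livers stood at 9.85 to 10.45 and those labelled probucol at 8.35 to 9.25, so that the CoQ10 livers overlapped wild type and the untreated livers overlapped the probucol group.

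The other genes that rose were Cmpk2, Erdr1 and Itgae. Cmpk2 (probe ILMN_1240864, chromosome 12), a mitochondrial nucleotide kinase also induced by interferon, had levels of 7.2, 6.84, 6.38, 6.95 and 6.84 untreated and 8.33, 7.98, 7.69, 7.14 and 8.10 with CoQ10 (log2 1.00 ± 0.20, limma adjusted p = 0.0495). Its groups overlapped through CoQ10 replicate 4. Erdr1 (probe ILMN_2998658, chromosome X), an erythroid differentiation regulator, stood at 9.85 to 10.54 and 10.76 to 11.51 (1.02 ± 0.19, limma adjusted p = 0.0323), while its other probe gave 0.34 ± 0.27 (limma adjusted p = 0.768). Itgae (probe ILMN_2699898, chromosome 11), the integrin chain CD103 of lymphocytes and dendritic cells, was above background in 1 untreated and 5 CoQ10 livers (0.81 ± 0.16, limma adjusted p = 0.0437). Its other probes gave 0.66 ± 0.16 (limma adjusted p = 0.120) and -0.03 ± 0.13 (limma adjusted p = 0.978), so the probes of Erdr1 and of Itgae disagree. By prefix all 3 calls were lost, with 0.56 for Cmpk2 (limma adjusted p = 0.328), 0.48 for Erdr1 (limma adjusted p = 0.380) and 0.64 for Itgae (limma adjusted p = 0.152).

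Calls differed in how much they rested on 1 liver. Cyp4a12a, Enpp6, Csrnp1, Nr1d1 and Plekhb1 kept an adjusted p under 0.05 in each of the 10 limma fits that left out 1 liver, with adjusted p at most 0.019. Cyp4a12a entered these fits only through its detection in the untreated group. The other 7 genes lost the call in some of these fits. Spata2l lost it without untreated replicate 4 or 5 (adjusted p up to 0.0564) and Erdr1 without CoQ10 replicate 2, 3 or 5 or untreated replicate 1, 4 or 5 (up to 0.105). Itgae lost it without CoQ10 replicate 1, 2, 3 or 4 or untreated replicate 2, 3 or 5 (up to 0.137). Mast3 (up to 0.122), Ppargc1a (up to 0.126) and Arrdc2 (up to 0.126) passed in just 1 of these fits, without untreated replicate 2, and Cmpk2 (up to 0.161) in 1, without CoQ10 replicate 4.

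Of the called probes without a symbol, ILMN_2735350 had the largest fall, from 8.69 to 10.09 untreated to 6.68 to 7.10 with CoQ10 (log2 -2.27 ± 0.29, limma adjusted p = 0.000801). ILMN_1229091 gave -1.95 ± 0.31 (limma adjusted p = 0.00474), with groups that overlapped. ILMN_2595732 was higher, from 9.46 to 10.91 untreated to 10.96 to 11.73 (1.25 ± 0.23, limma adjusted p = 0.0316), and ILMN_2526156 gave 0.83 ± 0.14 (limma adjusted p = 0.00917).

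**Figure D1:**
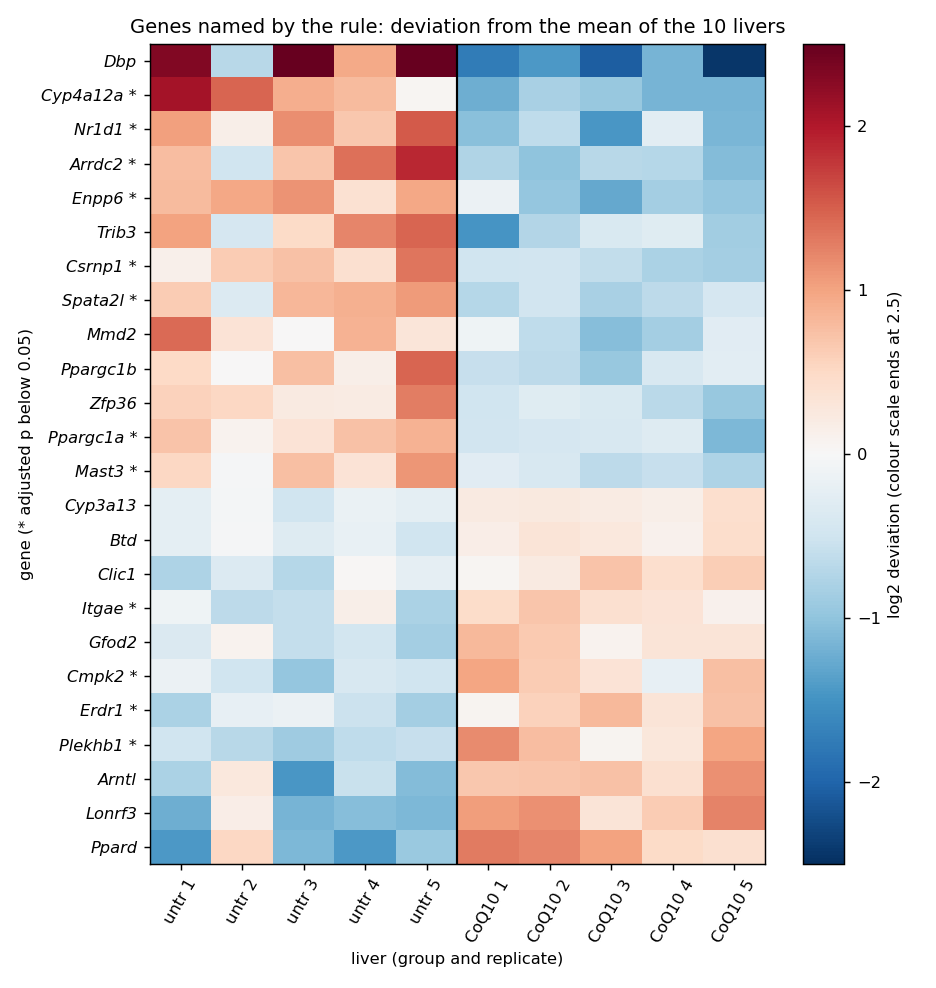
Deviation of normalised log2 intensity from the mean of the 10 livers, for the 24 genes named by the rule (rows, ordered by log2 difference, asterisk for adjusted p under 0.05) and the 10 livers (columns, 5 untreated then 5 CoQ10). Dbp at the top has the largest difference, -3.54, and Ppard at the bottom 1.77; in untreated replicate 2 Dbp, Arntl, Lonrf3 and Ppard stand nearest to the CoQ10 livers.

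The 12 genes with the next smallest p did not pass the threshold, 7 with higher and 5 with lower means in CoQ10 livers. The nuclear receptor Ppard stood at 7.55, 9.50, 7.86, 7.56 and 8.07 untreated against 9.39 to 10.30 with CoQ10 (log2 1.77 ± 0.36, limma adjusted p = 0.055), and its other probe gave 0.12 ± 0.19 (limma adjusted p = 0.918). Lonrf3 stood at 5.93, 7.33, 6.0, 6.09 and 6.03 against 8.21, 8.29, 7.48, 7.80 and 8.40 (1.76 ± 0.36, limma adjusted p = 0.0522). For each of these genes untreated replicate 2 was the highest untreated liver. Over the 10 fits that left out 1 liver the limma adjusted p ran from 0.00247 to 0.164 for Ppard and from 0.0067 to 0.146 for Lonrf3, lowest without that liver, whose removal widens the difference by construction. Clic1, a chloride intracellular channel protein, gave 0.80 ± 0.16, Gfod2 0.87 ± 0.19, the P450 Cyp3a13 0.49 ± 0.10 and biotinidase, Btd, 0.51 ± 0.11 (limma adjusted p between 0.055 and 0.0615). Mmd2 gave -1.18 ± 0.25 (limma adjusted p = 0.0591).

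Among circadian clock genes, Nr1d1 (probe ILMN_2749669, chromosome 11) fell about 3.52-fold in CoQ10 livers, 4 of which were not well above background. The means of Dbp, Tef, Nr1d2, Per2, Ciart and Bhlhe40 were lower as well and that of Arntl was higher, none of which passed the adjusted threshold. Of 24 listed clock genes 17 were measured, of which 12 had a negative and 5 a positive log2 difference, with a median of -0.61 against 0.0036 over 9262 measured genes. One passed the adjusted threshold, as did 0.119% of all genes. With unadjusted p under 0.05 there were 7 lower members (5.24% of all genes) and 1 higher (4.63%), 8 together against 9.87% of all genes. Groups did not overlap in 4 members, against 1.87% of all genes.

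Nr1d1 levels were 7.87, 6.98, 8.0, 7.51 and 8.38 untreated and 5.79, 6.21, 5.38, 6.57 and 5.69 with CoQ10, and it was above background in 1 of 5 CoQ10 livers (log2 -1.82 ± 0.26, limma adjusted p = 0.00247). By prefix the difference was -1.22 and the call was lost (limma adjusted p = 0.0843). Dbp, a PAR-bZIP output factor, had levels of 11.23, 8.24, 11.84, 9.88 and 12.28 untreated against 7.17, 7.48, 6.87, 7.76 and 6.49 with CoQ10. The difference was 11.6-fold in size (log2 -3.54 ± 0.75), but the untreated livers spread over 4 log2 units and the limma adjusted p was 0.06. Arntl, the activator on the opposite phase of the rhythm, had levels of 7.45, 8.5, 6.78, 7.67 and 7.15 untreated against 8.91, 8.93, 8.97, 8.63 and 9.37 with CoQ10 (1.45 ± 0.30, limma adjusted p = 0.0591). For Nr1d1, Dbp and Arntl the groups did not overlap, and untreated replicate 2 was the untreated liver nearest to the CoQ10 group. Over the 10 fits that left out 1 liver the limma adjusted p ran from 0.00679 to 0.201 for Dbp and from 0.0067 to 0.198 for Arntl, lowest without that liver, whose removal widens the difference by construction.

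The other clock members were less distinct. Nr1d2, the REV-ERB beta gene, gave -1.33 ± 0.34 (limma adjusted p = 0.149) and Per2, a repressor of the core loop, -1.40 ± 0.40 (limma adjusted p = 0.201). Tef, an output factor like Dbp, gave -1.2 ± 0.30 (limma adjusted p = 0.127). Ciart, a repressor of CLOCK and BMAL1, gave -0.69 ± 0.26 (limma adjusted p = 0.371) on its brighter probe and -1.03 ± 0.27 (limma adjusted p = 0.149) on the other, and Bhlhe40, a repressor at E-boxes, -0.81 ± 0.25 (limma adjusted p = 0.237). Clock (0.17 ± 0.17), Rora (0.12 ± 0.17) and Hlf (0.14 ± 0.18) were near 0. Dbp also varied within wild type, with levels of 8.30, 9.91, 11.72, 9.16 and 7.55.

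**Figure D2:**
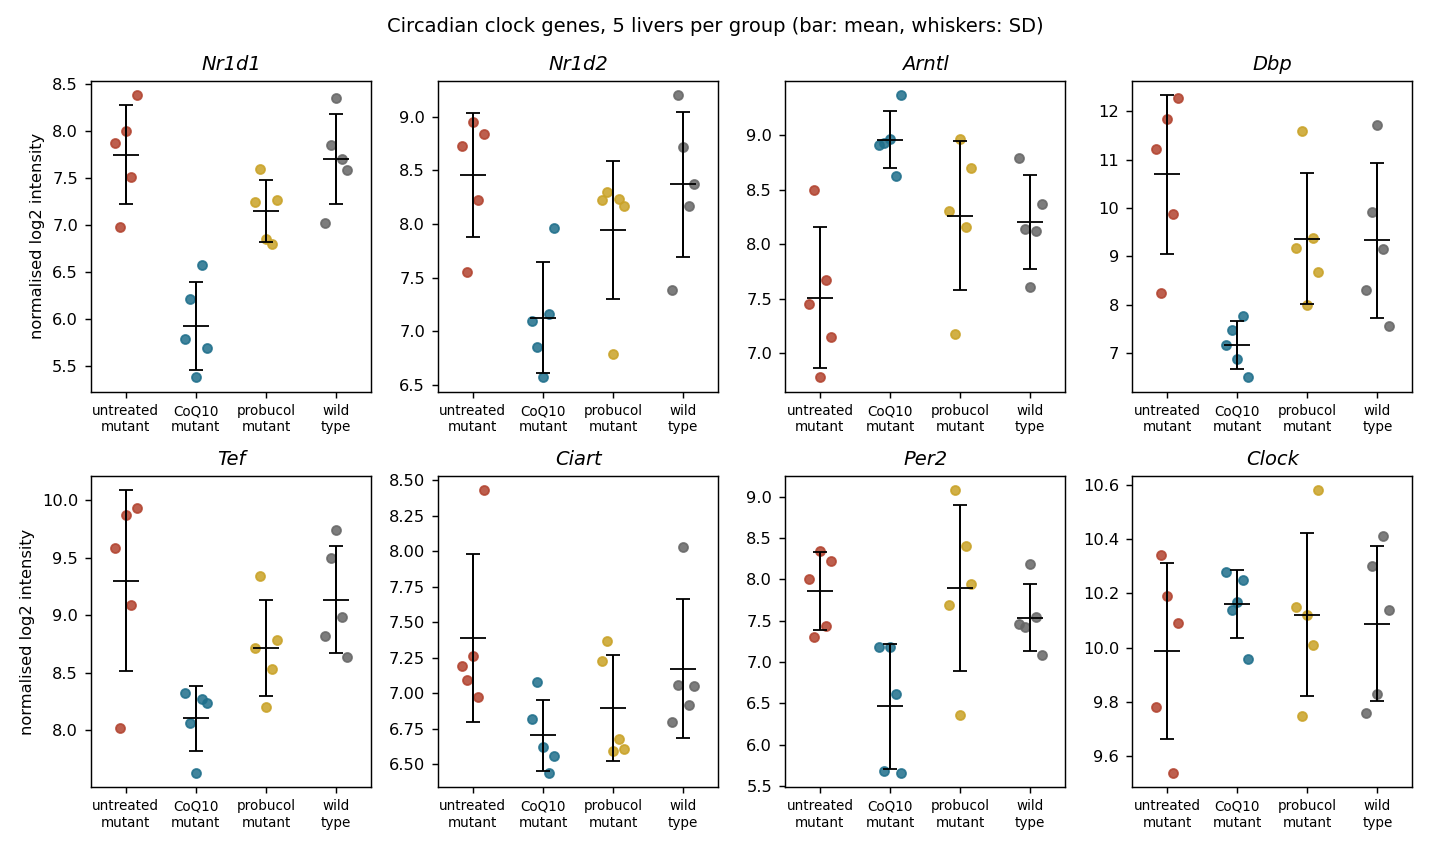
Normalised log2 intensity of 8 clock genes (vertical axes) in the 4 groups (horizontal axes, groups by treatment field); points are livers, 5 per group, horizontal bars are means and whiskers SD. The CoQ10 livers lie below every untreated liver for Nr1d1, Dbp and Per2 and above every untreated liver for Arntl, while Clock overlaps throughout.

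Promoter windows of 3 of these genes are shown because they hold letters through which the loop is known to act. The letters are an E-box in Ciart and Tef and a ROR element core in Arntl. RefSeq windows on GRCm38.p6 run from 250 bases before to 50 bases after the annotated start, and 14 of the measured clock genes matched, with 22 windows. Each is written 5′ to 3′ on the gene's strand with matches in capitals. Searched on both strands were the E-box CACGTG, the D-box TTATGTAA and the ROR element core TAGGTCA, and no matches overlapped in the windows shown.
Arntl (chr7:113207261-113207560, + strand): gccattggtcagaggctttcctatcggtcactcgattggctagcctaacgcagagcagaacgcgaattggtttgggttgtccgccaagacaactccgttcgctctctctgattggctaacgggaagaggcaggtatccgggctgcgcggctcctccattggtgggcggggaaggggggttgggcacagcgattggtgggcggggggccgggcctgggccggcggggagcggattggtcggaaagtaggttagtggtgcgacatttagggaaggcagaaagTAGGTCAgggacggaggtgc
Ciart (chr3:95882179-95882478, - strand): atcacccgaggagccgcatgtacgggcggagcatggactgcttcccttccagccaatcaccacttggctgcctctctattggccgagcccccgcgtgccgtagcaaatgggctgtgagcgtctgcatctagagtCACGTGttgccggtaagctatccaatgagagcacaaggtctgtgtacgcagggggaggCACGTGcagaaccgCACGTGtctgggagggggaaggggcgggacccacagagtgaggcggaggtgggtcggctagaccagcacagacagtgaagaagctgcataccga
Tef (chr15:81802423-81802722, + strand): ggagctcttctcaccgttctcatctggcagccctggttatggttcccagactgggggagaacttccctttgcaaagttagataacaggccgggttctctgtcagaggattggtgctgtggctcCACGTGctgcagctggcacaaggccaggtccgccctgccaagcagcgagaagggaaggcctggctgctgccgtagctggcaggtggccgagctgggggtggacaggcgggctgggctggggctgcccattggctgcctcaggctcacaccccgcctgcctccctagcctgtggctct
In Arntl the ROR element core starts at base 31 after the annotated start. Ciart holds E-boxes that begin 116, 58 and 44 bases before its start. In the Tef window shown, an E-box begins 127 bases before the start. The other Tef window, not shown, holds an E-box that begins 138 bases before its own start. The Per1 window with an E-box is not shown either. The E-box was found in windows of 3 of the 14 genes (Ciart, Per1 and Tef), against 8.09% of 27025 genes with a window. The windows of Nr1d1, Dbp and Nr1d2, whose means were also lower, held no E-box. The ROR element core was found in 1 (Arntl), against 2.97%, and the D-box in 0, against 1.11%. The other Arntl window held no ROR element core. These matches are descriptions of the letters in the windows.

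Regulators of glucose output and of the fasting state had mixed values. Of 20 genes of gluconeogenesis and its regulators 15 were measured, with a median of -0.24 and 1 call, Ppargc1a (0.119% of all genes). Members at unadjusted p under 0.05 were 4 lower and 0 higher (5.24% and 4.63% of all genes). Cebpb, a transcription factor of the fed-to-fasted switch, gave -0.91 ± 0.29 (limma adjusted p = 0.275). The liver identity factor Hnf4a gave -0.43 ± 0.16 (limma adjusted p = 0.370) and Pck1, which encodes the cytosolic PEP carboxykinase, -0.86 ± 0.41 (limma adjusted p = 0.523). Among 16 measured of 21 fasting-response genes 0 were called, with 4 higher and 4 lower at unadjusted p under 0.05 (4.63% and 5.24% of all genes) and a median of -0.11.

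Within the fasting list the members differed in sign. Pdk4, which restrains pyruvate oxidation, stood at 7.25, 8.20, 8.36, 7.29 and 7.95 untreated and 8.80, 9.96, 9.20, 8.83 and 9.40 with CoQ10 (log2 1.43 ± 0.41, limma adjusted p = 0.204), without overlap. Irs2, an insulin receptor substrate, gave 0.77 ± 0.21 (limma adjusted p = 0.182) and Ppp1r3c, which targets phosphatase 1 to glycogen, 1.16 ± 0.35 (limma adjusted p = 0.237). Lpin1, a phosphatidate phosphatase with a strong daily rhythm in liver, stood at 10.17, 8.43, 11.11, 11.37 and 11.57 against 8.32, 7.56, 9.11, 7.82 and 8.78 (-2.21 ± 0.68, limma adjusted p = 0.247). Untreated replicate 2 was again the lowest untreated liver, and it overlapped the CoQ10 group. Pnpla2, the adipose triglyceride lipase gene, gave -0.66 ± 0.17 (limma adjusted p = 0.138).

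Of 34 immediate early genes 19 were measured, 13 with a negative and 6 with a positive difference and a median of -0.31. At unadjusted p under 0.05 there were 7 lower and 0 higher (5.24% and 4.63% of all genes), and 1 was called, Csrnp1 (0.119% of all genes). Zfp36, which encodes an mRNA decay factor, stood at 11.59, 11.52, 11.23, 11.22 and 12.29 untreated and 10.52, 10.71, 10.63, 10.33 and 10.07 with CoQ10 (-1.12 ± 0.24, limma adjusted p = 0.0591), without overlap. Klf9, a glucocorticoid-induced factor, gave -0.85 ± 0.24 (limma adjusted p = 0.190), Egr1 -1.66 ± 0.57 (limma adjusted p = 0.315) and Jun, an AP-1 subunit, -0.61 ± 0.22 (limma adjusted p = 0.335). In Egr1 untreated replicate 5 reached 14.31 and the groups overlapped.

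Among 19 measured of 22 glucocorticoid-responsive genes 0 were called, with 6 lower and 1 higher at unadjusted p under 0.05 (5.24% and 4.63% of all genes) and a median of -0.38. The metal-binding metallothionein Mt2 stood at 8.85, 9.12, 8.15, 9.54 and 8.84 untreated and 7.04, 8.09, 6.38, 6.91 and 5.17 with CoQ10 (-2.18 ± 0.50, limma adjusted p = 0.0903). The groups did not overlap, with 8.15 the lowest untreated and 8.09 the highest CoQ10 value. Mt1 gave -0.70 ± 0.25 (limma adjusted p = 0.337) and Zbtb16, a glucocorticoid-induced zinc finger factor, -1.23 ± 0.42 (limma adjusted p = 0.305). Klf9 and Cebpb are members of this list too.

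The integrated stress response list had 17 of 24 genes measured, 0 called and a median of -0.23. It held 0 higher and 3 lower members at unadjusted p under 0.05 (4.63% and 5.24% of all genes). Trib3, a pseudokinase induced by ATF4 and CHOP, stood at 9.38, 7.96, 8.84, 9.60 and 9.83 untreated and 6.90, 7.64, 7.99, 8.07 and 7.5 with CoQ10 (-1.50 ± 0.31, limma adjusted p = 0.055), and its other probe gave -0.64 ± 0.20 (limma adjusted p = 0.273). Chac1, an ATF4-induced enzyme that degrades glutathione, gave -1.55 ± 0.46 (limma adjusted p = 0.229). Untreated replicate 2 was the lowest untreated liver for both genes. Over the 10 fits that left out 1 liver the limma adjusted p of Trib3 ran from 0.0028, without that liver, to 0.17. Of 19 measured ER chaperone genes 0 were called and the median was -0.20.

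Genes with sex-biased expression in mouse liver were examined in these female mice. Of 27 male-biased genes 19 were measured, 14 with a negative and 5 with a positive difference, a median of -0.26 and 1 call, Cyp4a12a (0.119% of all genes). At unadjusted p under 0.05 there were 4 lower and 1 higher (5.24% and 4.63% of all genes). Cyp2d9, a male-type steroid hydroxylase, stood at 11.89, 12.18, 12.23, 11.79 and 12.06 untreated and 9.35, 11.27, 11.33, 11.20 and 11.59 with CoQ10 (-1.08 ± 0.31, limma adjusted p = 0.204). Its groups did not overlap, and CoQ10 replicate 1 was the lowest liver. C6, a complement component, gave -0.49 ± 0.20 (limma adjusted p = 0.412), whereas Selenbp2 gave 0.54 ± 0.22 (limma adjusted p = 0.424).

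Of 27 female-biased genes 17 were measured, 0 were called and the median was 0.13. At unadjusted p under 0.05 there were 3 higher and 2 lower (4.63% and 5.24% of all genes). The higher were Sult2a1, Sult2a2 and Acot3, and the lower were Adgrf1 and Sult3a1. Sult2a1, a hydroxysteroid sulfotransferase, stood at 6.0, 5.40, 5.38, 6.66 and 5.48 untreated and 8.77, 7.68, 7.46, 7.25 and 8.49 with CoQ10 (2.15 ± 0.49, limma adjusted p = 0.0813). It was above background in 1 untreated and 5 CoQ10 livers. Sult2a2, a close relative whose probe may share signal with it, stood at 13.09, 9.0, 9.44, 13.38 and 8.65 against 13.39 to 14.82 with CoQ10 (3.38 ± 1.08, limma adjusted p = 0.275). Untreated replicates 1 and 4 stood apart from the other untreated livers in Sult2a2, and without them its limma adjusted p was 0.0432, a choice of livers made after their values were seen that widens the difference by construction. Sult3a1, of the same family, had a negative difference of -0.86 ± 0.40 (limma adjusted p = 0.504). In the growth hormone axis, which sets the sex pattern of liver genes, 16 of 20 genes were measured and 0 were called. Its members included 3 higher and 3 lower at unadjusted p under 0.05 (4.63% and 5.24% of all genes). The transducer Stat5a gave 0.92 ± 0.24 (limma adjusted p = 0.144) and the hormone Igf1 -0.34 ± 0.14 (limma adjusted p = 0.420).

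**Figure D3:**
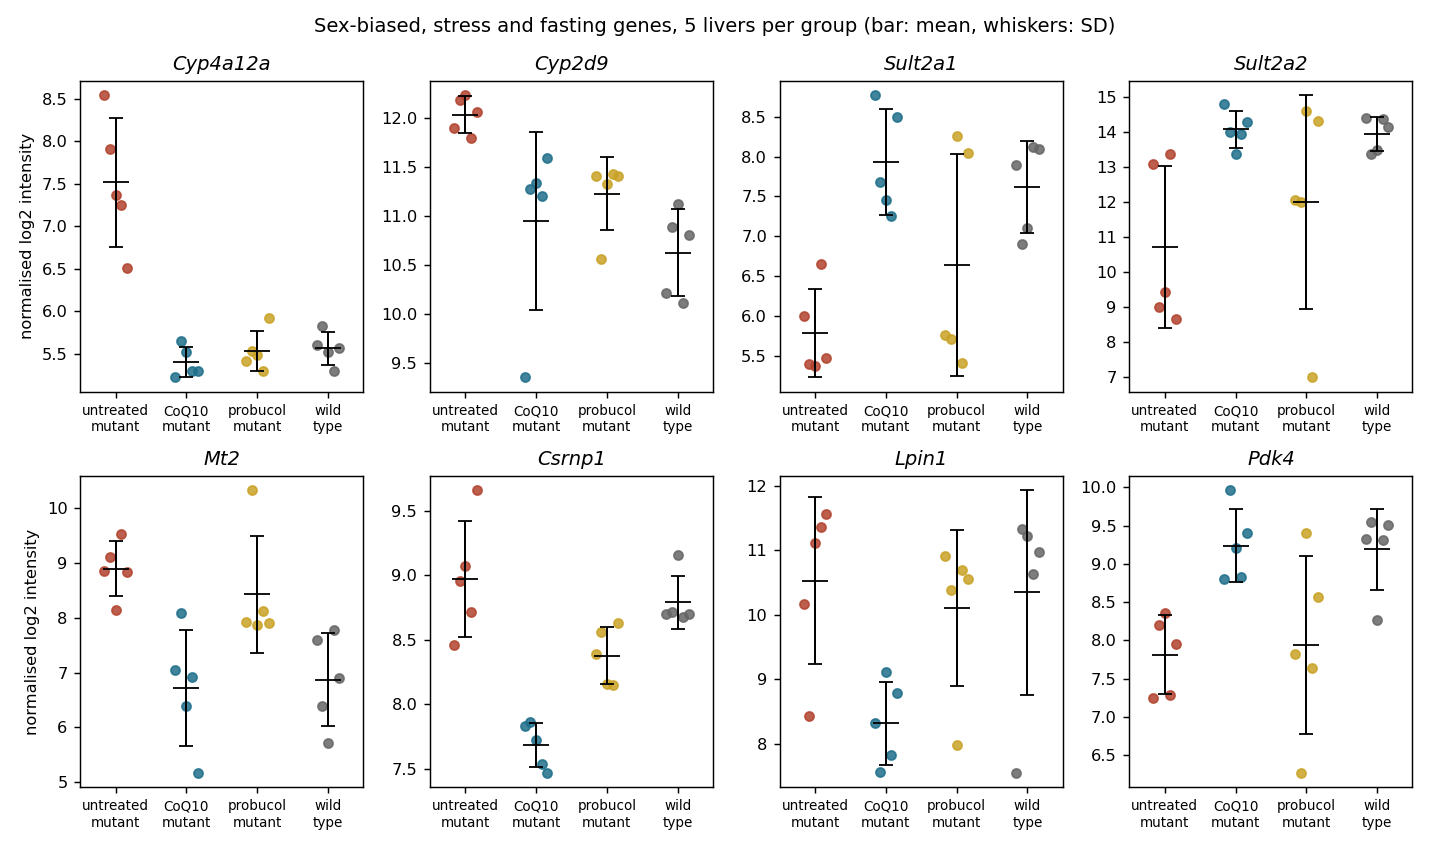
Normalised log2 intensity of 8 sex-biased, stress and fasting genes (vertical axes) in the 4 groups (horizontal axes, groups by treatment field); points are livers, 5 per group, bars are means and whiskers SD. Cyp4a12a is at background outside the untreated group, and untreated livers of Sult2a2 split, with replicates 1 and 4 at 13.09 and 13.38 and the others at 8.65 to 9.44. The livers labelled probucol spread further for Sult2a2, from 6.99 to 14.61.

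Of 40 listed interferon-response genes 31 were measured, 25 with a positive difference against 50.7% of all genes, with a median of 0.23 and 0 calls. At unadjusted p under 0.05 there were 5 higher and 0 lower (4.63% and 5.24% of all genes). The called gene Cmpk2 is induced by interferon too but is given above. Ifi27 stood at 12.70, 12.31, 12.18, 12.61 and 12.28 untreated and 13.38, 13.58, 12.73, 12.83 and 13.20 with CoQ10 (0.73 ± 0.17, limma adjusted p = 0.093), without overlap. The ubiquitin-like modifier Isg15 gave 0.94 ± 0.32 (limma adjusted p = 0.306) and the GTPase Igtp 0.69 ± 0.27 (limma adjusted p = 0.405).

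Markers of other liver cells were examined beside these values. Of 18 Kupffer cell and macrophage markers 16 were measured, 14 with a positive difference against 50.7% of all genes, with a median of 0.17 and 0 calls. Their summed intensity was 31185 to 39333 in untreated and 32933 to 43437 in CoQ10 livers. Folr2, a folate receptor of resident macrophages, gave 0.51 ± 0.15 (limma adjusted p = 0.229), and the complement genes C1qa 0.49 ± 0.17 (limma adjusted p = 0.302) and C1qb 0.35 ± 0.13 (limma adjusted p = 0.356). Of 21 lymphocyte markers 3 were measured, and Cd3d, Cd4, Cd8a, Ms4a1 and Nkg7 did not pass the detection filter. Of 13 dendritic cell and antigen presentation markers 6 were measured, with a summed intensity of 4039 to 6507 untreated and 3230 to 9352 with CoQ10. All 6 had a positive difference, against 50.7% of all genes, with a median of 0.14 and 0 calls. Cd207 gave 0.63 ± 0.18 (limma adjusted p = 0.217) and H2-Aa, the next, 0.23 ± 0.24 (limma adjusted p = 0.843). The part of cell composition in the interferon values and in Itgae was not tested, and in whole liver more cells of a type and more RNA per cell cannot be told apart.

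Genes of CoQ biosynthesis and of the respiratory chain did not pass the test. Of 15 biosynthesis genes 11 were measured, with differences from -0.39 to 0.30 and a median of -0.02, and 0 were called. Coq7, which encodes the hydroxylase before the last methylation step, stood at 8.95, 8.78, 8.94, 9.04 and 9.05 untreated and 8.24, 8.55, 8.76, 8.84 and 8.61 with CoQ10 (-0.35 ± 0.12, limma adjusted p = 0.334), with groups that overlapped. Coq8b (0.26 ± 0.16), Coq10b (-0.39 ± 0.32), Coq8a (0.30 ± 0.32) and Coq5 (-0.11 ± 0.12) were within about 2 SE of 0. Coq2, Coq6 and Coq9 differed by 0.03 ± 0.11, -0.06 ± 0.10 and -0.02 ± 0.11.

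Dehydrogenases that pass electrons to CoQ behaved likewise, with 13 of 14 measured, a median of 0.06 and 0 calls. Choline dehydrogenase, Chdh, stood at 8.64 to 9.12 untreated and 8.15 to 8.58 with CoQ10 (-0.37 ± 0.12, limma adjusted p = 0.295), without overlap. Aifm2, a plasma membrane CoQ oxidoreductase, gave -0.28 ± 0.15 and Sqor, which oxidises sulfide onto CoQ, 0.16 ± 0.17. Complex I had 34 of 37 genes measured, from -0.18 to 0.46 with a median of 0.03, and 0 members with unadjusted p under 0.05. Complexes II to V had 34 of 40 measured and a median of 0.0038. At unadjusted p under 0.05 there were 1 higher and 1 lower (4.63% and 5.24% of all genes). These were Cox7a1 (0.66 ± 0.25, limma adjusted p = 0.379) and Cox6a1 (-0.32 ± 0.10, limma adjusted p = 0.272). Among 18 measured regulators of mitochondrial biogenesis the median was -0.0034. The members with unadjusted p under 0.05 (9.87% of all genes) were Ppargc1a, which was called (0.119% of all genes), and Ppargc1b.

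Lipid and detoxification lists held 0 calls. Medians were -0.03 for 18 measured genes of mitochondrial beta-oxidation, 0.03 for 20 PPAR alpha targets, -0.12 for 20 genes of cholesterol synthesis, -0.07 for 20 of fatty acid and triglyceride synthesis and 0.09 for 37 Nrf2 targets and antioxidant enzymes. In that order, higher and lower members at unadjusted p under 0.05 were 0 and 0, 4 and 2, 0 and 1, 1 and 3, and 3 and 0. Among all genes the shares were 4.63% and 5.24%. Acot3, a peroxisomal acyl-CoA thioesterase of the PPAR alpha list, stood at 9.80 to 11.58 untreated and 11.82 to 12.25 with CoQ10 (1.2 ± 0.49, limma adjusted p = 0.419), and Acot4, its neighbour in sequence, gave 0.49 ± 0.18 (limma adjusted p = 0.354). For both the groups did not overlap, and cross-hybridisation between them was not tested. Among 28 measured P450 genes of drug metabolism 3 were higher and 5 lower at unadjusted p under 0.05 (4.63% and 5.24% of all genes), including Cyp3a11 (-0.58 ± 0.20, limma adjusted p = 0.318) and Cyp1a2 (0.62 ± 0.22, limma adjusted p = 0.348).

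**Figure D4:**
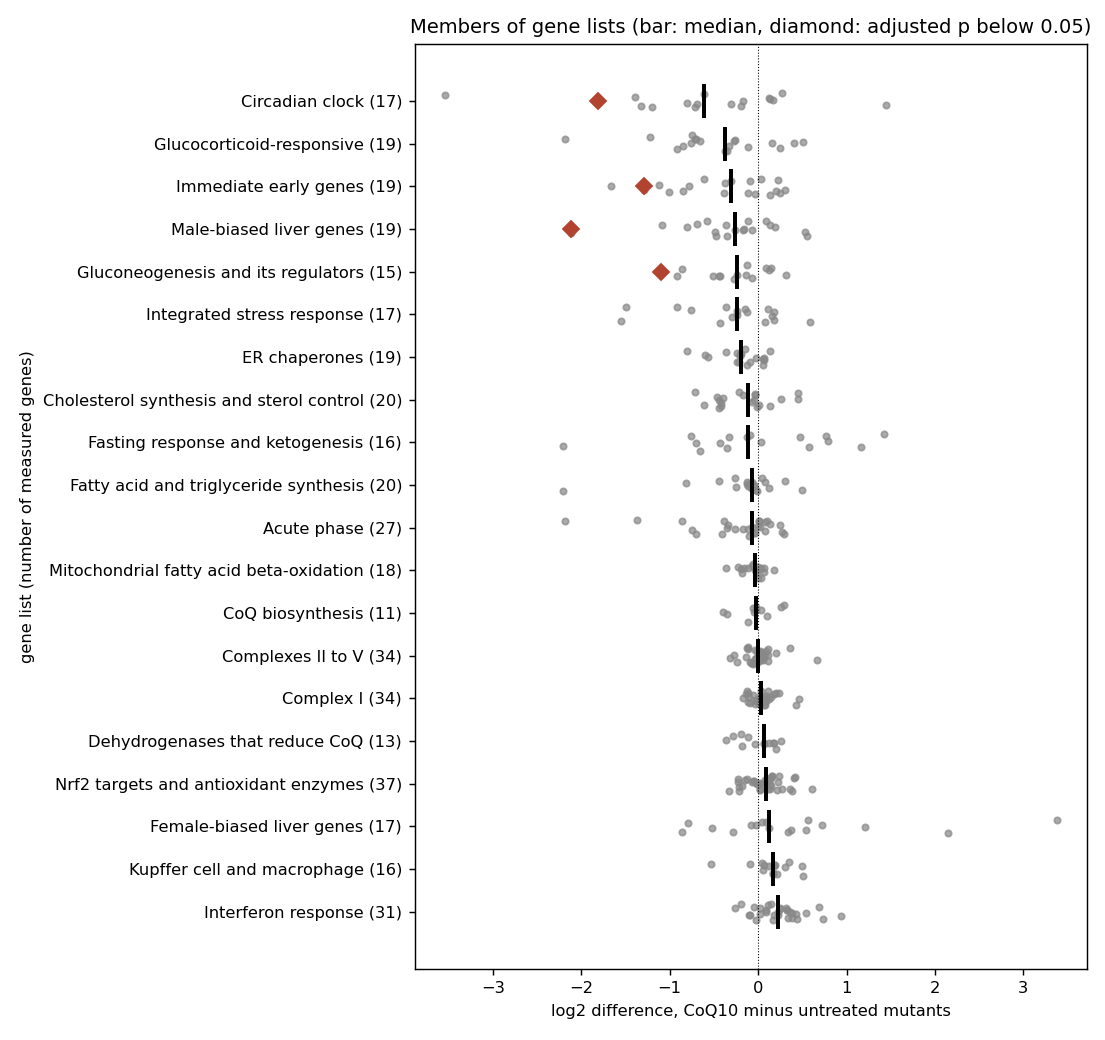
Log2 difference of CoQ10 minus untreated mutants (horizontal axis) for the measured members of 20 gene lists (rows, with the number of measured genes); grey points are genes, black bars are medians and red diamonds are genes with adjusted p under 0.05. Medians run from -0.61 for the circadian clock to 0.23 for the interferon response, and CoQ biosynthesis and the complexes lie close to 0.

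Read by array name prefix, the same CoQ10 livers were set against the 5 livers whose treatment field says probucol. That comparison called 7 probes (0.0464%), of which 2, Enpp6 and Plekhb1, were among the 18. Cyp4a12a was above background in 0 livers of either group in that reading and gives no direction. Arrdc2, above background in 1 liver labelled probucol and in 0 CoQ10 livers, lost its call (limma adjusted p = 0.832). The other 10 genes had the same sign in both readings, with Enpp6 at -1.31 and Nr1d1 at -1.22 farthest from 0. Plekhb1 stood at 1.17 and Csrnp1 at -0.70.

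**Figure D5:**
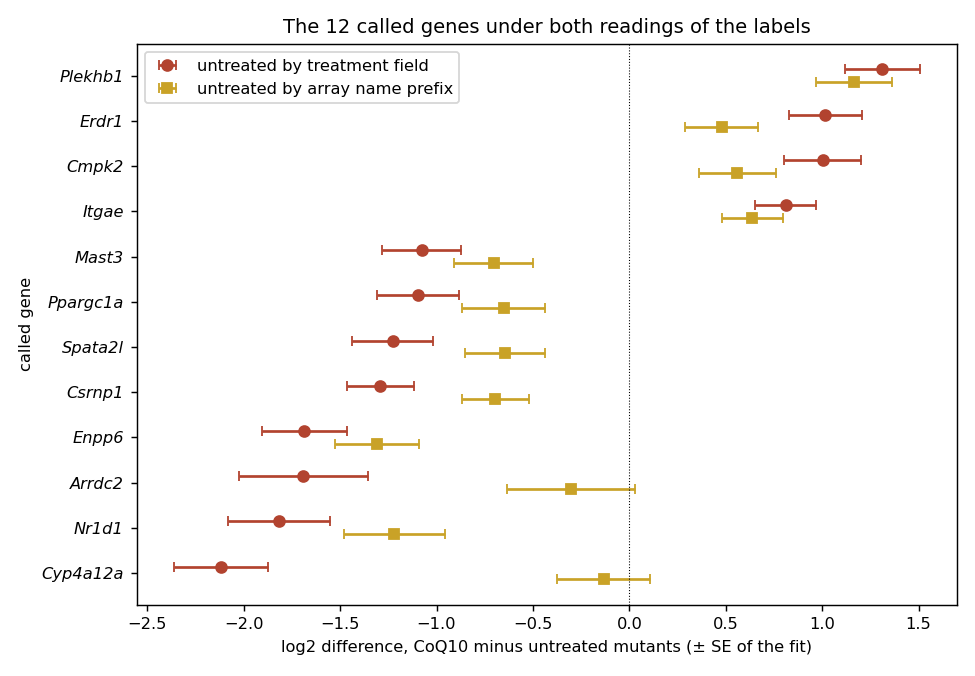
Log2 difference of CoQ10 minus untreated mutants (horizontal axis, whiskers SE of the fit) for the 12 called genes (rows), with the untreated livers taken by the treatment field (circles) or by the array name prefix (squares). Plekhb1 moves from 1.31 to 1.17, and the square of Cyp4a12a compares groups that are both at background.

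Wild-type livers place the called genes on a common scale, with the limits that these mice were older and that the comparisons share groups. Of the 12 genes, 5 also differed between CoQ10 and wild-type livers (0.437% of all probes did) and 2 between untreated mutants and wild type (0.119%), while 5 differed in neither. Nr1d1 averaged 7.75 ± 0.53 untreated, 5.93 ± 0.47 with CoQ10 and 7.70 ± 0.48 in wild type (SD, n = 5 each), and CoQ10 minus wild type was -1.77 (limma adjusted p = 0.00163). Enpp6 averaged 7.44 ± 0.28, 5.76 ± 0.42 and 7.56 ± 0.38, with -1.80 for CoQ10 minus wild type (limma adjusted p = 0.000202). For these genes the CoQ10 group is the one that stands off. Plekhb1 averaged 8.75 ± 0.15, 10.06 ± 0.46 and 10.17 ± 0.25, with -1.43 for untreated minus wild type (limma adjusted p = 0.000676) and -0.11 for CoQ10 minus wild type (limma adjusted p = 0.872). Cyp4a12a averaged 7.52 ± 0.76, 5.40 ± 0.18 and 5.56 ± 0.19, and was above background in 0 of 5 wild-type livers (untreated against wild type, limma adjusted p = 0.000289). For Cyp4a12a the untreated group stands off, and the probe passed the detection filter through that group alone. For Plekhb1 the untreated group stands off from CoQ10 and wild type but overlaps the livers labelled probucol, as given above.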

How the data were processed

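Liver RNA of 20 mice (200 ng each, amplified and biotin-labelled) was measured on Illumina arrays, 1 array per mouse, per the labels. The deposited table holds, for each probe and array, a bead intensity on a linear scale, and no header names the software that made it. The authors deposited beside each intensity a detection fraction from 0 to 1, headed as a p, which rises with intensity (rank correlation 0.990 to 0.996), so 1 minus it was used as detection p. A second deposited table holds the authors' normalised log2 values (medians 7.81 to 7.82), whose normalisation the sources used here do not state, and served as an alternative.

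Intensities were background-corrected by normexp with parameters inferred from detection p (offset 16), quantile-normalised and log2-transformed (limma 3.58.1, R 4.3.3). Probes with detection p under 0.05 in at least 5 of 20 arrays were kept (15096 of 45281), and 13202 of these had 1 gene symbol, 5 several and 1889 none in the platform annotation. Means of the 4 groups were estimated in 1 limma model over the 20 arrays (lmFit, eBayes), with Benjamini-Hochberg adjustment over all kept probes. A gene in a list is represented by its brightest kept probe. The precision is limited by the 5 mice per group, and the series' design text calls them biological replicates.

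The rule for genes named in the text took up to 15 rises and 15 falls of largest log2 difference among called probes with 1 symbol and no overlap, filled to 24 genes by smallest p, plus up to 5 members of smallest p per described list and every called list member. Itgae and Cmpk2, whose groups overlap, entered by their p. Other list members and comparisons are named as examples chosen after their values were seen. Members and lists were chosen with earlier results of these data known. Lists are described by counts and medians, and Fgb and Tat among hepatocyte markers fell below the detection filter. The test procedure was checked on simulated data.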

Additional observations from a re-analysis of the deposited data

Results flagged for a closer look

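A gap of 1 liver to the rest of its group exceeded Dixon's 95% critical value (0.71 of the range for 5 samples) in 3 of 48 groups tested, where chance gives about 1 in 20. Ppargc1a in CoQ10 mutants was lowest in replicate 5, at 7.17 against 7.82 to 7.97 in the others (gap 0.815 of the range). Lonrf3 in untreated mutants was highest in replicate 2, at 7.33 against 5.93 to 6.09 (gap 0.884). Ppard in untreated mutants was highest in the same replicate 2, at 9.50 against 7.55 to 8.07 (gap 0.734). The cause was not tested in any of them.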

How the results depend on the processing

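Against 18 called probes, counts were 7 with median scaling, 11 with no filter on dim probes, 9 with probes detected in all 20 arrays, 10 with only the 2 groups in the fit, 117 with array weights, 1 with age as a covariate and 7 with the untreated livers taken by array name prefix. Leaving out 1 liver at a time gave 11 to 37. Without untreated replicates 1 and 4, an alternative chosen after seeing the data, there were 60. The other settings gave 14 (no background correction), 18 (cyclic loess), 15 (the authors' log2 values), 15 (probes detected in at least 5 of the 10 arrays), 14 (array number as a block), 18 (trend and robust variance) and 12 (without the 2 youngest untreated mutants). Replicate numbers did not pair the livers (correlations of same-numbered deviations -0.102 to 0.383), and 1 CoQ10 and 1 untreated liver correlated best with its own number. With the array number as a block, 9 of the 12 named genes were called, and Mast3, Ppargc1a and Cmpk2 were lost. With the replicate block there were 19 calls, of which 15 were among the 18. That block kept 10 of the 12 named genes, Mast3 and Ppargc1a being lost (limma adjusted p = 0.0683 each). Of the named genes, 24 were tested under each setting except 17 with probes detected in all 20 arrays and 23 with at least 5 of the 10, and 0 of those tested changed sign. The cause of these shifts was not tested, apart from the fewer probes or samples that some settings hold by construction. The nephritis score difference of -2 was 0 by prefix (exact permutation p = 1) and -2.3 to -1.7 with 1 mouse left out. The score stands in the same record as the treatment field, and whether it follows the array name was not tested. Of 51 list medians, 24 moved by more than the replicate spread with age as a covariate and 21 by prefix, against 0 to 4 under each other setting. Probes near background limit the folds of Cyp4a12a and Arrdc2 to bounds and make those of Nr1d1 and Enpp6 approximate.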

Other observations

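Zonation markers of the liver lobule had differences of both signs, and 0 were called. Of the 9 measured periportal markers 1 was higher and 3 were lower at unadjusted p under 0.05. Of the 14 pericentral markers 3 were higher and 1 was lower (4.63% higher and 5.24% lower of all genes). Of 9 measured periportal markers, Cyp2f2 gave -0.39 ± 0.15 and Aldh1b1 0.51 ± 0.17, both without overlap (limma adjusted p = 0.390 and 0.302). Of 14 pericentral markers, Tbx3, a Wnt target, gave 1.03 ± 0.31 and Oat, ornithine aminotransferase, -0.71 ± 0.21 (limma adjusted p = 0.235 each). Among 24 measured genes of iron and heme, 4 were higher and 1 lower at unadjusted p under 0.05 (4.63% and 5.24% of all genes). They include Blvrb, a biliverdin reductase (0.51 ± 0.15, limma adjusted p = 0.206), and Alas1, the rate-limiting enzyme of heme synthesis (-0.55 ± 0.26, limma adjusted p = 0.517). The acute-phase chemokine Cxcl1 gave -1.37 ± 0.47 (limma adjusted p = 0.310) by treatment field and -3.21 by prefix (limma adjusted p = 0.00664).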
